A study of Homo sapiens with 24 samples.

Results

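Homologous recombination rebuilds a broken chromosome from an intact copy of the same sequence, and the Fanconi anemia pathway opens DNA crosslinks so that replication can pass them. In recombination a broken end is trimmed to a single strand, the strand is coated by replication protein A, and BRCA2 and other mediators prepare the strand for its exchange with the intact copy. Cells that lack this route die when poly-ADP-ribose polymerase (PARP) is inhibited, which is the best-known case of synthetic lethality in cancer treatment. The 37 genes described here encode proteins of these 2 pathways. They were taken as a fixed list of gene symbols, and each was found in the count table of 58735 genes. Their roles are recombination mediators (4 genes), strand-exchange accessory genes (5: RAD51B, RAD51C, RAD51D, XRCC2 and XRCC3), annealing and remodelling of DNA (3), end sensing and resection (5), checkpoint kinases (4), replication protein A (3), the Fanconi core complex with its ubiquitin-conjugating enzyme (9), the FANCD2-FANCI complex (2), and a helicase with a nuclease scaffold (2).

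Polyadenylated RNA was sequenced from THP-1 and MOLM-13, cell lines established from human acute myeloid leukemia, both with the MLL-AF9 fusion gene. Per the series' title and design text, the study asked how oxidized 5-methylcytosine bears on the response to PARP inhibitors, and compared each treatment with vehicle. For 72 h, cells of each line received L-ascorbic acid (LAA), the vitamin that TET enzymes use when they oxidize 5-methylcytosine, at 250 µM together with the PARP inhibitor olaparib at 1 µM, LAA at 250 µM alone, olaparib at 1 µM alone, or vehicle. Each of the 8 groups held 3 libraries, 24 in all. Whether replicates came from separate cultures is not stated in the labels, and p-values measure the spread among these libraries, which may be technical.

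Total counts ran from 18666259 to 25265870 per library, and the 37 genes together took 27855 to 42213 counts. All 8 myeloid marker genes were expressed, with summed levels of 760 to 1141 CPM (counts scaled to a common depth) per library. CPM of marker genes were scaled by total counts alone, and all other CPM also with TMM factors. The hemoglobin gene HBB, the keratin gene KRT5 and the collagen-binding gene DCN were at 0 in every library, with 1.37 to 3.94 CPM summed over 6 epithelial and fibroblast markers. T and NK cell markers (5 genes) summed to 4.37 to 20.7 CPM and B cell markers (4 genes) to 9.05 to 18.6 CPM. The libraries labelled MOLM-13 were close to those of THP-1. With vehicle, 765 of 17089 genes differed between the lines (4.48%; edgeR's quasi-likelihood test, Benjamini-Hochberg adjusted p under 0.05), and 202 of them by at least 2-fold (1.18%). A rule set after the values were seen picked 15 protein-coding genes, those with no more than 12 counts summed over all THP-1 libraries but 20 or more summed over the 3 libraries labelled MOLM-13 with olaparib. In the libraries labelled MOLM-13 their summed level was 4.08 ± 1.03 CPM with both compounds, 5.33 ± 0.502 with LAA, 19.2 ± 1.38 with olaparib and 31.6 ± 0.895 with vehicle (SD, n = 3 each). In THP-1 no library exceeded 0.673 CPM. The rule itself set this low level and required counts in the olaparib libraries labelled MOLM-13, so neither is a separate result. A change in the makeup of the cells and an effect of treatment cannot be told apart in the libraries labelled MOLM-13, and in bulk RNA fewer cells of a type and less RNA per cell cannot be told apart in either line.

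**Figure D1:**
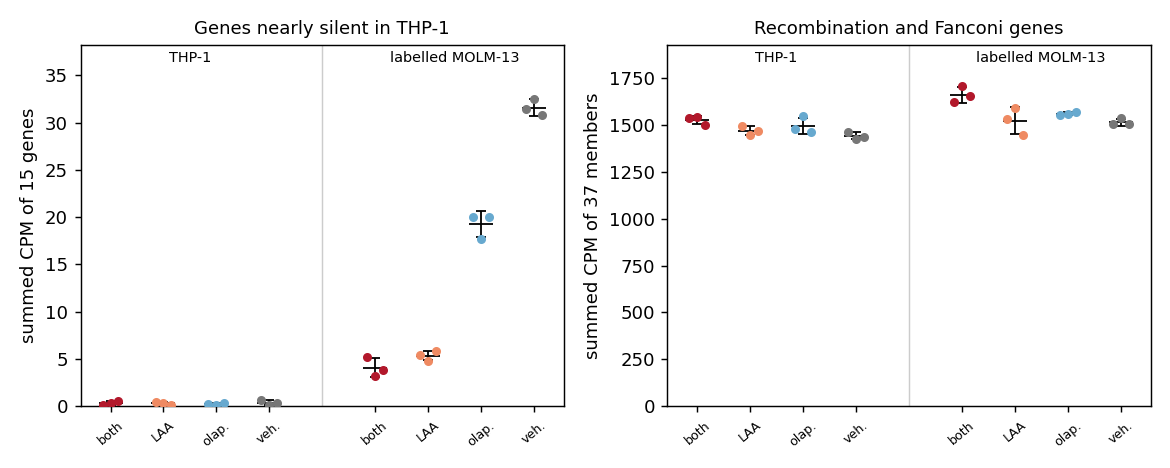
Left, summed level (CPM) in each library of the 15 genes nearly silent in THP-1; right, summed level (CPM) of the 37 recombination and Fanconi genes; points are libraries and bars the mean and SD of 3. The 15 genes stood at 4.08 CPM with both compounds and 31.6 CPM with vehicle in the libraries labelled MOLM-13, while the 37 genes summed to 1662 ± 42.8 and 1516 ± 19.0 CPM in the same groups.

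All 37 genes passed the filter on low counts in both lines. With vehicle, levels per gene length spanned 0.416 to 37.2 FPKM (fragments per kilobase of gene and depth of the library) in THP-1, with a median of 6.17 FPKM. RPA1, the large subunit of replication protein A, stood highest in THP-1 vehicle libraries at 37.2 ± 0.619 FPKM, followed by UBE2T, the ubiquitin-conjugating enzyme of the Fanconi core complex, at 28.5 ± 1.22 FPKM. RPA2 and FANCE came next, at 23.7 ± 2.20 and 18.0 ± 0.725 FPKM (SD, n = 3), and these 4 did not overlap their neighbours in the order. Of the 36 pairs of neighbours, 18 overlapped in THP-1. The lowest was RAD50, a subunit of the complex that senses broken ends, at 0.416 ± 0.0903 FPKM in THP-1 vehicle libraries. In the libraries labelled MOLM-13 with vehicle the median was 5.41 FPKM, UBE2T and RPA1 led at 39.2 ± 2.31 and 39.1 ± 1.17 FPKM, and 25 of 36 neighbours overlapped.

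The sequencing kit does not mark the strand, and 22 of the 37 genes share exon bases with another gene in GENCODE 29. RAD50 shares 79.7% of its exon bases with other genes, XRCC3 shares 76.7% with KLC1 on the opposite strand, RAD54B 59.1% with FSBP, and RAD54L 25.1% with LRRC41. The values of these 4 genes are uncertain. The other 33 genes shared 23.6% or less, and BRCA2, XRCC2, EXO1 and FANCE were among those that shared none.

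UBE2T was the only gene of the 37 called between the lines at vehicle. It was at 45.5, 48.0 and 49.6 CPM in THP-1 vehicle libraries, against 69.6, 63.8 and 62.5 CPM in those labelled MOLM-13. Every THP-1 library was below every library labelled MOLM-13, a difference of -0.46 ± 0.07 on the log2 scale (SE; 1.38-fold lower in THP-1, edgeR adjusted p = 6.62e-05). For the set that is 1 of 37 genes called, 2.7%, against 4.48% of all genes. FANCI, the partner of FANCD2, came next by adjusted p with 1.19-fold fewer CPM in THP-1 and did not pass (edgeR adjusted p = 0.0861).

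The largest set of changes came with LAA and olaparib together in THP-1. Of the 37 genes, 11 rose, 3 fell and 23 did not pass (37.8% called, against 27.1% of all 16331 genes tested). By direction, 29.7% rose against 13.5% of all genes, and 8.11% fell against 13.5%. The genes that rose were the mediators BRCA1 and BRCA2, the accessory genes RAD51C, XRCC2 and XRCC3, RAD54L, the end-processing genes NBN, RBBP8 and EXO1, the kinase gene CHEK1, and FANCI. Those that fell were ATM, RPA1 and FANCE. None of the 37 was called with a change of 2-fold or more, against 4.18% of all genes. The median log2 fold change of the 37 was 0.09, against -0.01 for all genes. Mitochondrially encoded genes took 8.38 ± 0.94% of counts with both compounds in THP-1 and 7.09 ± 0.35% with vehicle (SD, n = 3 each), with the highest share, 9.47%, in combination replicate 1. The part of that share in these changes was not tested.

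Among the mediators, BRCA2, a mediator that binds single-stranded DNA, was at 45.0, 51.3 and 53.5 CPM in THP-1 combination libraries, against 34.4, 33.6 and 32.6 CPM with vehicle. All 3 combination libraries lay above all 3 vehicle libraries, and the log2 fold change was 0.57 ± 0.09 (SE; 1.49-fold, edgeR adjusted p = 1.95e-05). BRCA1, a ubiquitin ligase subunit that acts at breaks before BRCA2, was at 99.1, 107 and 97.1 CPM with both compounds, against 84.8, 81.8 and 79.2 CPM with vehicle. These groups did not overlap either, and BRCA1 rose 1.23-fold (log2 0.30 ± 0.07, edgeR adjusted p = 0.00214). BARD1, the partner of BRCA1 in the ligase, and PALB2, which bridges BRCA1 and BRCA2, had log2 fold changes of 0.00 ± 0.10 and 0.08 ± 0.11 and did not pass.

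The strand-exchange accessory genes act with the mediators, and 3 of the 5 rose. XRCC2 was at 28.3, 24.2 and 26.4 CPM in THP-1 combination libraries, against 18.2, 16.6 and 16.4 CPM with vehicle. Its lowest combination library exceeded its highest vehicle library, and at 1.54-fold it had the largest increase of the set (log2 0.62 ± 0.10, edgeR adjusted p = 3.43e-05). RAD51C was at 55.2, 51.4 and 52.4 CPM with both compounds, against 39.8, 41.0 and 42.9 CPM with vehicle. The groups stood apart and RAD51C rose 1.28-fold (edgeR adjusted p = 0.000607). XRCC3 rose 1.27-fold, from exons it largely shares with KLC1 (edgeR adjusted p = 0.0389), a call that did not hold without any 1 of the 3 vehicle replicates or combination replicate 1 or 3 (edgeR adjusted p from 0.0595 to 0.133), nor with limma on FPKM (adjusted p of 0.0831 and 0.0926 with pseudocounts of 1 and 0.1). RAD51B and RAD51D had log2 fold changes of 0.27 ± 0.18 and -0.09 ± 0.10 and were not called.

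Of the 5 genes of end sensing and resection, 3 rose. RBBP8, whose product CtIP starts resection, was at 48.1, 47.9 and 44.1 CPM in THP-1 combination libraries, against 38.4, 36.3 and 32.9 CPM with vehicle, without overlap (1.30-fold, edgeR adjusted p = 0.00128). NBN, the regulatory subunit of the complex with RAD50, was at 105, 115 and 96.9 CPM with both compounds, against 86.7, 83.4 and 83.7 CPM with vehicle. The combination libraries were the higher ones throughout, and the fold was 1.25 (edgeR adjusted p = 0.00162). EXO1, a nuclease of long-range resection, was at 80.3, 81.9 and 80.7 CPM, against 69.3, 65.1 and 65.2 CPM with vehicle. Here too the groups stood apart, at 1.22-fold (edgeR adjusted p = 0.0023). BLM, a helicase of the same step, and RAD50 had log2 fold changes of 0.14 ± 0.08 and -0.41 ± 0.28 and did not pass. RAD54L, a motor protein of strand exchange, rose 1.23-fold (edgeR adjusted p = 0.00784), with the overlap with LRRC41 given above. RAD52, an annealing protein, and RAD54B did not pass.

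The signalling and single-strand-binding genes went both ways. ATM, the kinase that answers double-strand breaks, was at 45.4, 46.1 and 38.6 CPM in THP-1 combination libraries, against 58.3, 53.8 and 59.1 CPM with vehicle. Each combination library was below each vehicle library, a change of -0.39 ± 0.10 on the log2 scale (SE; 1.31-fold lower, edgeR adjusted p = 0.00422). The ATM call was lost when FPKM values were tested with limma (adjusted p of 0.0713 and 0.0682 with pseudocounts of 1 and 0.1). CHEK1, the checkpoint kinase downstream of ATR, rose 1.18-fold (edgeR adjusted p = 0.0371), although its libraries overlapped. Leaving out vehicle replicate 1 or 2 or combination replicate 1 or 2 ended that call (edgeR adjusted p from 0.0723 to 0.188), as did testing without the filter on low counts (edgeR adjusted p = 0.0682) and limma on FPKM (adjusted p of 0.0562 and 0.0541). ATR and CHEK2 did not pass. RPA1 fell 1.15-fold (edgeR adjusted p = 0.00794), a call lost without combination replicate 2 (edgeR adjusted p = 0.0641), and the smaller subunits RPA2 and RPA3 were not called.

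Of the 9 genes of the core complex and its enzyme, only FANCE was called. FANCE, the subunit that binds FANCD2, was at 35.7, 32.2 and 42.3 CPM in THP-1 combination libraries, against 47.0, 51.1 and 48.7 CPM with vehicle. The groups did not overlap, and FANCE was 1.33-fold lower (log2 -0.41 ± 0.09, edgeR adjusted p = 0.00104). The other 8 ranged from -0.26 (FANCF) to 0.35 (FANCM) on the log2 scale without passing. FANCI was at 69.0, 68.1 and 69.8 CPM with both compounds, against 53.2, 57.0 and 51.0 CPM with vehicle. Its groups stood well apart (1.28-fold, edgeR adjusted p = 0.000777), while its partner FANCD2 had a log2 fold change of -0.13 ± 0.08 and was not called. BRIP1, a helicase that binds BRCA1, and SLX4, a scaffold for nucleases, did not pass.

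**Figure D2:**
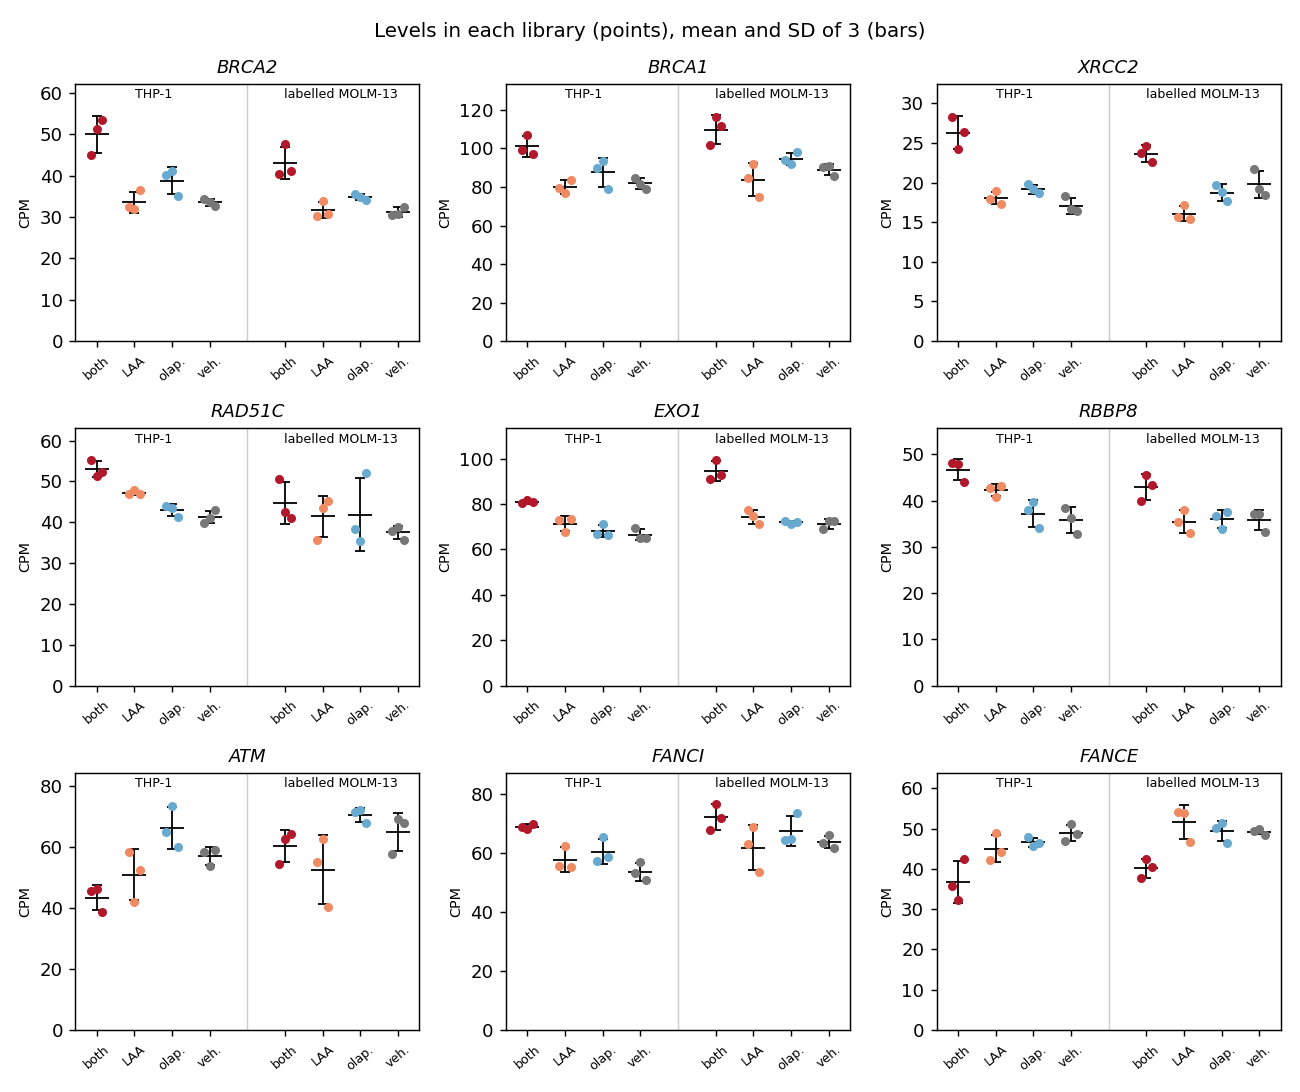
Level (CPM) of 9 genes in each library of THP-1 (left of each panel) and of the libraries labelled MOLM-13 (right), with both compounds, LAA, olaparib (olap.) or vehicle (veh.); points are libraries and bars the mean and SD of 3. In THP-1 the combination libraries lie above the vehicle libraries for BRCA2, BRCA1, XRCC2, RAD51C, EXO1, RBBP8 and FANCI and below them for ATM and FANCE.

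Promoter windows of 300 bases (250 before the transcription start and 50 after it, RefSeq, GRCh38.p14) were matched for 32 of the 37 genes. Windows were searched on both strands for 4 forms of the E2F site (TTTGGCGC, TTTCCCGC, TTTCGCGC, TTTGCCGC), for the cell cycle homology region (CHR, written TTTGAA or alternatively TTCGAA) and for the CCAAT box, none of which contains another. An E2F form was found in 5 of the 32 windows (15.6%), against 3.33% of 27305 windows, in EXO1, FANCA, FANCC, FANCD2 and XRCC2. A CHR form was found in 4 (12.5%, against 16.6%) and a CCAAT box in 13 (40.6%, against 35.7%). The 3 windows shown are those of the called genes with the smallest adjusted p in THP-1 with both compounds whose window held an E2F or CHR form. The capitals mark that form. XRCC2 (chr7:152676092-152676391, minus strand) and EXO1 (chr1:241847954-241848253, plus strand) rose, and ATM (chr11:108222817-108223116, plus strand) fell.
XRCC2: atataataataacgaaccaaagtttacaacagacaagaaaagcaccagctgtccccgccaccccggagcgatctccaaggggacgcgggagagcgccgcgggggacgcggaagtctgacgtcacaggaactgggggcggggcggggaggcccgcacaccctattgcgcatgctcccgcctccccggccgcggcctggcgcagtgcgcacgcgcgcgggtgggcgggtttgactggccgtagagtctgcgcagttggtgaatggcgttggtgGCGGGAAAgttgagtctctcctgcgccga
EXO1: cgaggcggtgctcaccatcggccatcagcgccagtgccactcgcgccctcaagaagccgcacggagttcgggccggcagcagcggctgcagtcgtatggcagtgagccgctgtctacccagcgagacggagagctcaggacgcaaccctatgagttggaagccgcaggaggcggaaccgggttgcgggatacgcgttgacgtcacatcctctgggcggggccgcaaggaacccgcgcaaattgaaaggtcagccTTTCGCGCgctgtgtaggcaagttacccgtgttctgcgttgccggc
ATM: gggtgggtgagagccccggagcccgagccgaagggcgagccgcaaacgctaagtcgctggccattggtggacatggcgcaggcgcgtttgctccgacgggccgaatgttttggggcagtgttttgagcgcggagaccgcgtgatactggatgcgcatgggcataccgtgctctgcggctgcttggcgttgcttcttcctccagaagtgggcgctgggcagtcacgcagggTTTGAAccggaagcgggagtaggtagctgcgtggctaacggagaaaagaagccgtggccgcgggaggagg
XRCC2 holds its E2F form on the opposite strand, near the end of the window, and EXO1 holds one on the strand of the gene. FANCA, FANCC and FANCD2, which also held an E2F form, were not called against vehicle in either line. A match is a description of letters and not of binding.

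Both compounds together were next set against each single compound in THP-1, using the same combination libraries as above. Against LAA alone 8 of 37 genes were called (21.6%, against 20.3% of all genes). Of these 5 were higher (13.5%, against 10.1%) and 3 lower (8.11%, against 10.2%). BRCA2 was at 32.3, 31.8 and 36.5 CPM with LAA, below all 3 combination libraries (1.49-fold higher with both compounds, edgeR adjusted p = 2.84e-05). XRCC2, XRCC3 and BRCA1 were 1.46, 1.52 and 1.26-fold higher with both compounds (edgeR adjusted p = 0.000243, 0.000919 and 0.00112). FANCI was higher by 1.19-fold (edgeR adjusted p = 0.0185), a call lost without LAA replicate 1 or 3 (edgeR adjusted p = 0.0899 and 0.0925). FANCA, a core complex subunit, was 1.21-fold lower than with LAA (edgeR adjusted p = 0.0117). RPA1 was lower by 1.15-fold and FANCE by 1.23-fold. RPA1 lost its call without combination replicate 2 (edgeR adjusted p = 0.0857), and FANCE lost its call without LAA replicate 2 or combination replicate 1 or 2 (edgeR adjusted p from 0.0771 to 0.148).

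Against olaparib alone 10 of 37 genes were called in THP-1 (27%, against 24.2%). Of these 8 were higher (21.6%, against 12.3%) and 2 lower (5.41%, against 11.9%). ATM stood out: it was at 64.9, 73.6 and 60.0 CPM with olaparib, above all 3 combination libraries, so that both compounds together were 1.52-fold lower (log2 -0.61 ± 0.10, edgeR adjusted p = 5.26e-05). XRCC2 was 1.37-fold higher with both compounds, BRCA2 1.29-fold, RBBP8 1.26-fold, RAD51C 1.23-fold and EXO1 1.19-fold. BRCA1, RAD54L and NBN were higher by 1.15, 1.22 and 1.16-fold and FANCE lower by 1.27-fold, with calls that did not hold under every setting. BRCA1 was lost without olaparib replicate 1 or 3 or combination replicate 2 (edgeR adjusted p from 0.0594 to 0.214; log2 0.14 without olaparib replicate 3, against 0.21 with all libraries). It was also lost without the filter on low counts and with the 6 compared libraries alone (edgeR adjusted p = 0.0771 and 0.0611), and with limma on FPKM (adjusted p of 0.0511 and 0.0507). RAD54L was lost without olaparib replicate 1 or combination replicate 1 (0.089 and 0.0507). NBN was lost without olaparib replicate 1 or 3 or combination replicate 1 or 2 (edgeR adjusted p from 0.0555 to 0.152) and with limma on FPKM (adjusted p of 0.0514 and 0.0505). FANCE was lost without combination replicate 2 (edgeR adjusted p = 0.0612).

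The single compounds changed few of these genes. With LAA in THP-1, NBN was the 1 gene of 37 called (2.7%, against 1.49% of all genes), and 3 had an unadjusted p under 0.05 (8.11%, against 12.3%). NBN was at 110, 94.4 and 106 CPM with LAA, against 86.7, 83.4 and 83.7 CPM with vehicle, without overlap (1.23-fold, edgeR adjusted p = 0.0377). Leaving out LAA replicate 1 or 3 or any 1 vehicle replicate ended the call (edgeR adjusted p from 0.08 to 0.192), as did limma on FPKM (adjusted p of 0.104 and 0.103), and the count for the set became 0. With olaparib in THP-1, 0 of 37 were called by edgeR or by DESeq2 (0.269% of all genes by edgeR). At an unadjusted p under 0.05 there were 6 of 37 (16.2%, against 9.28% of all genes): BRCA2, BLM, ATM, CHEK1, FANCM and FANCI, each with olaparib libraries above the vehicle libraries. Among the 37, olaparib libraries were all above vehicle for 9 genes and all below for 1 (27% without overlap, against 16.6% of all genes). CHEK1 was at 51.6, 52.1 and 48.8 CPM with olaparib, against 42.3, 39.2 and 45.8 CPM with vehicle, and did not pass (edgeR adjusted p = 0.283).

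**Figure D3:**
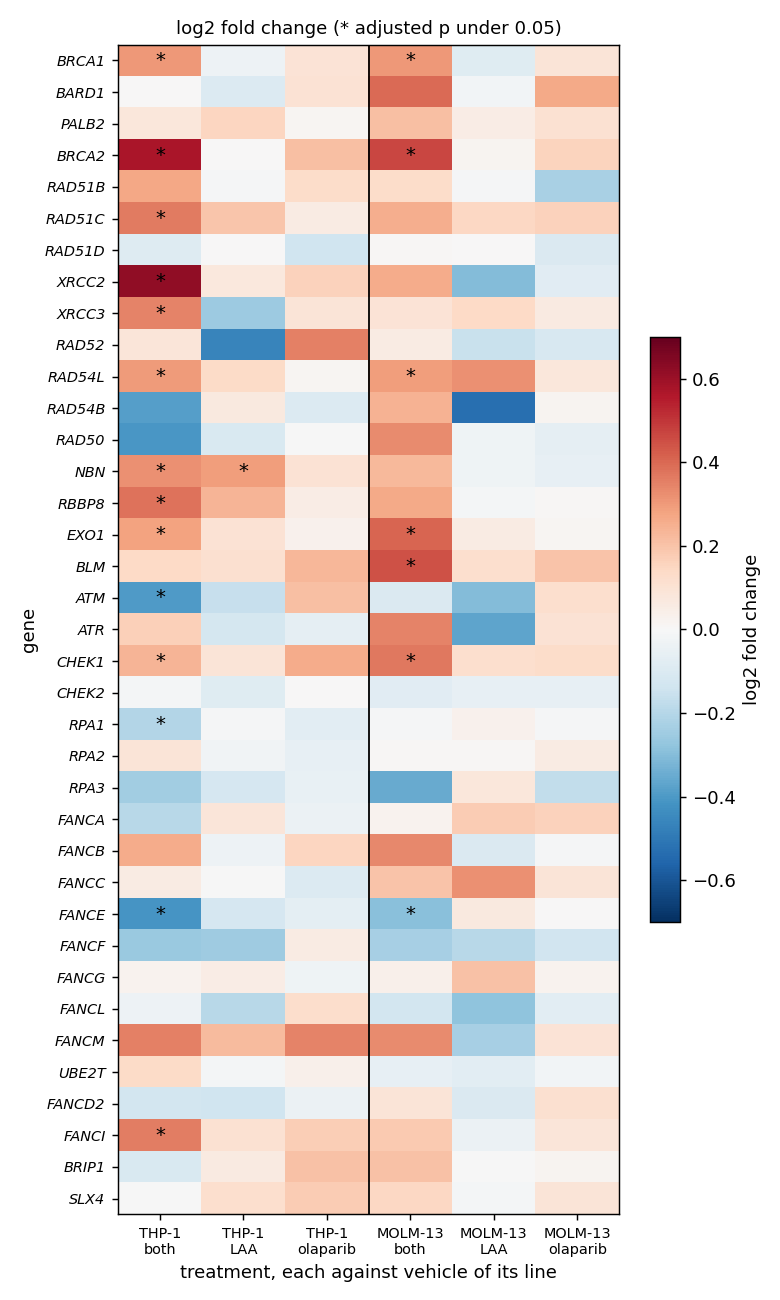
Log2 fold change against vehicle of the same line (color) for the 37 genes (rows) with both compounds, LAA or olaparib; a star marks an edgeR adjusted p under 0.05. The columns with both compounds hold 14 stars in THP-1 and 7 in the libraries labelled MOLM-13, and the columns with 1 compound hold 1 star in all, NBN with LAA in THP-1.

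Whether the pair differed from the sum of the single effects was tested as an interaction (the combination effect less the sum of both single effects, as log2 values). In THP-1, 0 of 37 genes passed edgeR's test (7.57% of all genes did), and 8 had an unadjusted p under 0.05 (21.6%, against 19.9% of all genes). DESeq2 called 1 of the 37, ATM (adjusted p = 0.0376), and 1483 of all genes, against 1237 by edgeR. ATM had an interaction of -0.44 ± 0.14 (edgeR adjusted p = 0.0537), since its level was above vehicle with olaparib and below it with both compounds. XRCC3, BRCA2 and XRCC2 had interactions of 0.51 ± 0.18, 0.36 ± 0.13 and 0.38 ± 0.14 (edgeR adjusted p = 0.0833, 0.0842 and 0.116). The count was 3 without LAA replicate 2, 2 without olaparib replicate 3, and 1 without combination replicate 1 or 2. Over all genes it was then 1478, 1212, 1057 and 1244.

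In the libraries labelled MOLM-13 the combination called 7 of 37 genes against vehicle, 6 higher and 1 lower (18.9%, against 12.2% of all 16160 genes tested). By direction 16.2% rose, against 4.85% of all genes, and 2.7% fell, against 7.35%. The genes were BRCA1, BRCA2, RAD54L, EXO1, BLM and CHEK1, which rose, and FANCE, which fell. None of the 37 was called with a change of 2-fold or more, against 2.16% of all genes. The median log2 fold change of the set was 0.20, against 0.00 for all genes. In the set 29 of 37 genes were above 0, and the share of all genes above 0 was not computed. The 15 genes nearly silent in THP-1 were at 4.08 ± 1.03 CPM in these combination libraries and at 31.6 ± 0.895 CPM in the vehicle libraries, and mitochondrially encoded genes took 9.08 ± 0.302% of counts with both compounds and 6.71 ± 0.0327% with vehicle.

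EXO1 was at 91.2, 99.5 and 92.6 CPM in the combination libraries labelled MOLM-13, against 68.7, 72.7 and 72.3 CPM with vehicle. The gap between the groups was wider than either group's range (1.33-fold, log2 0.41 ± 0.07, edgeR adjusted p = 0.000761). BLM was at 75.0, 77.9 and 72.5 CPM with both compounds, against 54.2, 56.8 and 54.6 CPM with vehicle. BLM thus rose 1.36-fold without overlap (edgeR adjusted p = 0.000693). BRCA2 was at 40.4, 47.6 and 41.2 CPM with both compounds, against 30.4, 30.7 and 32.5 CPM with vehicle, again apart (1.38-fold, edgeR adjusted p = 0.00197). CHEK1 was at 49.6, 50.6 and 50.6 CPM, against 40.8, 39.4 and 36.4 CPM with vehicle. All 3 combination libraries were the higher ones (1.29-fold, edgeR adjusted p = 0.00694), and EXO1, BLM, BRCA2 and CHEK1 kept their calls under each of the 14 other settings tried.

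BRCA1 was at 102, 116 and 112 CPM in the combination libraries labelled MOLM-13, against 90.3, 91.0 and 85.6 CPM with vehicle (1.24-fold, edgeR adjusted p = 0.0184). Its groups stood apart, but leaving out vehicle replicate 3 or combination replicate 2 or 3 ended the call (edgeR adjusted p from 0.0711 to 0.105). RAD54L was at 46.1, 48.4 and 49.9 CPM, against 36.1, 40.7 and 41.2 CPM with vehicle (1.22-fold, edgeR adjusted p = 0.0384). FANCE was at 37.6, 42.4 and 40.4 CPM, against 49.4, 49.9 and 48.5 CPM with vehicle (1.23-fold lower, edgeR adjusted p = 0.0315). Neither gene overlapped between the groups, and both calls were lost on leaving out any 1 of the 6 libraries (edgeR adjusted p from 0.0584 to 0.171 for RAD54L and from 0.0547 to 0.138 for FANCE). The FANCE call was also lost with scaling by total counts (edgeR adjusted p = 0.113), and both calls without the filter on low counts (edgeR adjusted p = 0.0815 for RAD54L and 0.0508 for FANCE). The count of called genes was 4 without vehicle replicate 3 or combination replicate 2 or 3. Over all genes it was then 1353, 1043 and 1176, against 1972 with all libraries. The 5 strand-exchange accessory genes had log2 fold changes of 0.01 to 0.26 with none called, XRCC2 and RAD51C at the top, and BARD1 (0.40 ± 0.13, edgeR adjusted p = 0.0587), RPA3 (-0.35 ± 0.12, 0.0675) and RBBP8 (0.26 ± 0.09, 0.0683) came nearest to passing.

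**Figure D4:**
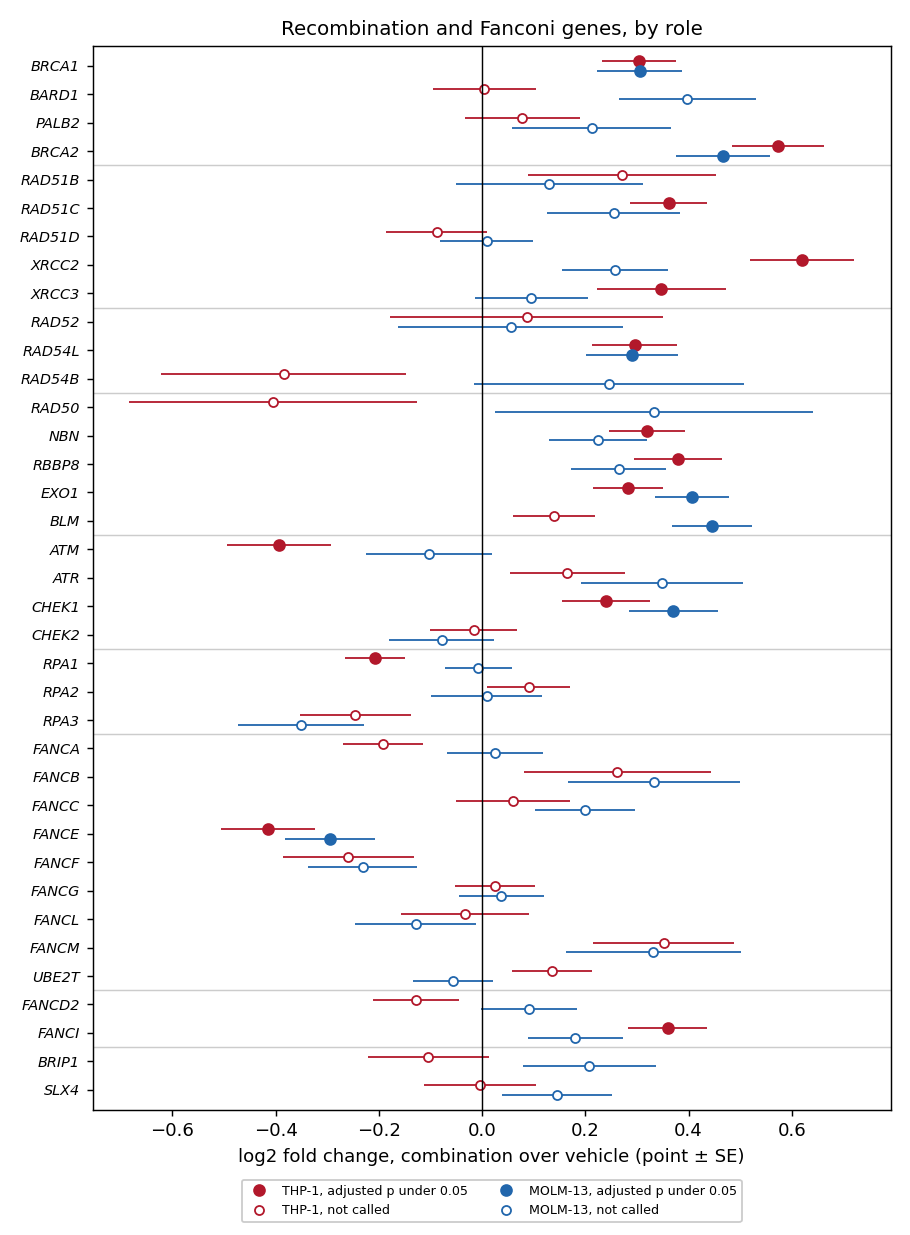
Log2 fold change of the 37 genes with LAA and olaparib together over vehicle in THP-1 (red) and in the libraries labelled MOLM-13 (blue), grouped by role from mediators (top) to the helicase and the nuclease scaffold (bottom); bars are the SE and filled points passed an adjusted p of 0.05. The largest increases were those of XRCC2 (0.62) and BRCA2 (0.57) in THP-1, and FANCE was lower in both lines.

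Set against LAA alone, the combination libraries labelled MOLM-13 called 11 of 37 genes (29.7%, against 14.9% of all genes). Of these 9 were higher (24.3%, against 6.68%) and 2 lower (5.41%, against 8.25%). The 15 genes nearly silent in THP-1 were at similar levels in these groups, 4.08 ± 1.03 CPM with both compounds and 5.33 ± 0.502 CPM with LAA. ATR, the kinase that answers stalled replication forks, had the largest difference among the called genes, 1.65-fold higher with both compounds (log2 0.72 ± 0.16, edgeR adjusted p = 0.00547). It was at 24.7, 30.6 and 32.4 CPM with both compounds, against 18.6, 22.5 and 12.3 CPM with LAA. The LAA libraries were spread widely, and the log2 value was 0.51 without LAA replicate 3, 0.92 without LAA replicate 2 and 0.47 with limma on log2(FPKM + 1), still called each time. XRCC2 was at 23.8, 24.6 and 22.6 CPM with both compounds, against 15.6, 17.2 and 15.4 CPM with LAA, without overlap (1.47-fold, edgeR adjusted p = 0.00135). BRCA2, BRCA1, EXO1 and BLM were higher by 1.36, 1.31, 1.27 and 1.25-fold and FANCE was lower by 1.29-fold. BLM lost its call without combination replicate 2 (edgeR adjusted p = 0.0572). BARD1, RBBP8 and FANCM were also higher and RPA3 lower. Each of these 4 calls was lost without LAA replicate 1 or 3 or combination replicate 2, those of BARD1 and FANCM without combination replicate 1 or 3 as well, and that of RBBP8 without combination replicate 3 (edgeR adjusted p from 0.0525 to 0.212). Without LAA replicate 3 the log2 value was 0.24 for BARD1 and 0.36 for FANCM, against 0.42 and 0.56 with all libraries. All 4 calls were also lost with limma on FPKM (adjusted p from 0.052 to 0.086), those of BARD1, RBBP8 and FANCM with the 6 compared libraries alone (edgeR adjusted p = 0.077, 0.0699 and 0.0502), that of RBBP8 without the filter (0.0964) and that of RPA3 with total counts (0.0523). The count was 7 without LAA replicate 1 or 3 and 6 without combination replicate 2. Over all genes it was then 1589, 1388 and 1029, against 2413 with all libraries.

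Set against olaparib alone, 3 of 37 genes were called in the libraries labelled MOLM-13 (8.11%, against 7.48%), 2 higher (5.41%, against 2.89%) and 1 lower (2.7%, against 4.59%). The 15 genes stood at 4.08 ± 1.03 CPM with both compounds and 19.2 ± 1.38 CPM with olaparib, the group whose counts were used to pick them. EXO1 was at 72.4, 71.1 and 72.2 CPM with olaparib, below every combination library (1.31-fold higher with both compounds, edgeR adjusted p = 0.00145). BRCA2 was 1.24-fold higher (edgeR adjusted p = 0.0456) and FANCE 1.23-fold lower (edgeR adjusted p = 0.0436). BRCA2 lost its call without any 1 of the 6 libraries (edgeR adjusted p from 0.0587 to 0.241), without the filter (0.0695) and with limma on FPKM (adjusted p of 0.101 and 0.107). FANCE lost its call without any 1 of them but olaparib replicate 3 (edgeR adjusted p from 0.0754 to 0.183), with total counts (0.161) and without the filter (0.101). The count was 1 without olaparib replicate 1 or 2 or any 1 combination replicate. Over all genes it was then 624 to 918, against 1208 with all libraries.

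With LAA alone in the libraries labelled MOLM-13, edgeR called 0 of 37 genes (1.88% of all genes), and 7 had an unadjusted p under 0.05 (18.9%, against 14.4% of all genes). DESeq2 called 1 of the 37, RAD54L (adjusted p = 0.0216), and 575 of all genes, against 303 by edgeR. RAD54L was at 47.5, 49.3 and 50.4 CPM with LAA, against 36.1, 40.7 and 41.2 CPM with vehicle, above it in each library (edgeR adjusted p = 0.0738). With olaparib alone edgeR called 0 (0.00619% of all genes), DESeq2 0, and 1, BLM, had an unadjusted p under 0.05 (2.7%, against 8.38% of all genes). The interaction called 1 of 37 (2.7%, against 2.04%; 8 at an unadjusted p under 0.05, 21.6%, against 13.9% of all genes), XRCC2, at 0.64 ± 0.15 (edgeR adjusted p = 0.023). XRCC2 was lowest with LAA, at 15.6 to 17.2 CPM, and highest with both compounds, at 22.6 to 24.6 CPM. Leaving out vehicle replicate 1 or 2, LAA replicate 1, olaparib replicate 2 or 3, or combination replicate 1 or 2 ended this call (edgeR adjusted p from 0.0515 to 0.0834). The count was 2 without LAA replicate 2, where 496 of all genes were called, against 329 with all libraries.

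In both lines, 6 genes were called in the same direction with both compounds: BRCA1, BRCA2, RAD54L, EXO1 and CHEK1 rose and FANCE fell. Only BRCA2 and EXO1 kept the call under every alternative tried in both lines, at an adjusted p under 0.05. CHEK1 lost it under some alternatives in THP-1, and BRCA1, RAD54L and FANCE did so in the libraries labelled MOLM-13. The 6 genes were 42.9% of the 14 genes called in THP-1 and 85.7% of the 7 called in the libraries labelled MOLM-13. Over all genes 4423 and 1972 were called. The share of all genes called in the same direction in both lines was not computed, so the shares of the 37 have no background to be read against. The difference between the lines in the effect of both compounds was tested directly, and 0 of 37 genes passed (2.13% of all genes did, DESeq2 called 0 of the 37, and 4, or 10.8%, had an unadjusted p under 0.05, against 15.9% of all genes). Of those 4, XRCC2 had the higher log2 fold change in THP-1 (difference 0.37, 95% interval 0.11 to 0.63, edgeR adjusted p = 0.149). BLM had the lower log2 fold change in THP-1 (-0.30, interval -0.51 to -0.09, edgeR adjusted p = 0.148), as did BARD1 (-0.38, interval -0.73 to -0.04) and RPA1 (-0.19, interval -0.35 to -0.04), of which RPA1 was called lower against vehicle in THP-1. For the LAA effect 0 of 37 passed (0.14% of all genes, DESeq2 0, 5 at an unadjusted p under 0.05, or 13.5%, against 6.41% of all genes), and for the olaparib effect 0 passed (0.00585% of all genes, DESeq2 0, 0 at an unadjusted p under 0.05, against 4.37% of all genes). A missing call in 1 line is therefore not shown to be a difference between the lines. Shared calls have a limit too. With vehicle 4.48% of all genes differed between the lines. In the libraries labelled MOLM-13 the 15 genes nearly silent in THP-1 stood at 31.6 CPM with vehicle and 4.08 CPM with both compounds. Whether these libraries stand as a line separate from THP-1 was not tested.

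Across the 4 groups of THP-1, the combination had the highest mean for 17 of the 37 genes (45.9%, against 35% of all genes). It had the highest mean for 22 in those labelled MOLM-13 (59.5%, against 30.5%). In THP-1 the lowest mean was that of the combination for 10 genes (27%, against 36.2%), of LAA for 11 (29.7%, against 20.2%), of olaparib for 4 (10.8%, against 21.5%) and of vehicle for 12 (32.4%, against 22.2%). With the label MOLM-13 it was that of the combination for 5 (13.5%, against 30.2%), of LAA for 16 (43.2%, against 28.7%), of olaparib for 4 (10.8%, against 20.3%) and of vehicle for 12 (32.4%, against 20.9%). The combination and vehicle libraries did not overlap for 18 of the 37 genes in THP-1 (48.6%, against 40.3% of all genes), 11 with the combination above and 7 below. They did not overlap for 19 in those labelled MOLM-13 (51.4%, against 35.1%), 16 above and 3 below.

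Neighbouring pathways were described from 4 further lists. Among 40 tested genes of recombination and Fanconi repair outside the 37, 8 rose (20%, against 13.5% of all genes) and 1 fell (2.5%, against 13.5%) with both compounds in THP-1, and 6 rose (15%, against 4.85%) and 1 fell (2.5%, against 7.35%) in the libraries labelled MOLM-13. POLQ, the polymerase of microhomology-mediated end joining, was at 47.0 CPM on average with both compounds and 36.2 CPM with vehicle in THP-1 (1.30-fold, edgeR adjusted p = 0.00404). Its means were 52.7 CPM with both compounds and 34.0 CPM with vehicle in the libraries labelled MOLM-13 (1.55-fold, edgeR adjusted p = 0.000869). CLSPN, which carries the ATR signal to CHEK1, rose 1.32-fold in THP-1 and 1.53-fold in the other line, and TOP3A, a topoisomerase that works with BLM, and MCM8, a helicase of recombination, rose 1.36 and 1.43-fold in THP-1. TOPBP1, an activator of ATR, rose 1.22-fold and ABRAXAS1, a subunit of a BRCA1-containing complex, was 1.62-fold lower in the libraries labelled MOLM-13. Of 16 end joining genes, 3 rose in THP-1 (LIG4, PAXX and TP53BP1, by 1.35, 1.25 and 1.20-fold), or 18.8%, against 13.5% of all genes. In the libraries labelled MOLM-13 1 rose (TP53BP1, 1.44-fold), or 6.25%, against 4.85%, and 0 were called lower in either line.

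Genes of S phase and mitosis moved in the same libraries. Of 31 replication genes, 8 rose (25.8%, against 13.5% of all genes) and 2 fell (6.45%, against 13.5%) with both compounds in THP-1, led by MCM7, a subunit of the replicative helicase (1.55-fold, edgeR adjusted p = 5.26e-08), and CDC6, a helicase loader (1.45-fold), with MCM3 and MCM5 at 1.18 and 1.20-fold. In the libraries labelled MOLM-13, 4 rose (MCM10, MCM7, CDC6 and MCM3, by 1.39, 1.32, 1.27 and 1.22-fold; 12.9%, against 4.85%) and 0 fell. Of 30 mitosis genes, 8 rose (26.7%, against 13.5%) and 6 fell (20%, against 13.5%) in THP-1: CDC20, UBE2C, PTTG1 and AURKA rose by 1.36, 1.43, 1.37 and 1.25-fold, whereas the motor protein genes KIF20A and CENPE were 1.30 and 1.33-fold lower. Of the same list 4 rose (CDC20, AURKA, PLK1 and HMMR; 13.3%, against 4.85%) and 0 fell in the libraries labelled MOLM-13. The median log2 fold change with both compounds was 0.04 for the replication list and 0.09 for the mitosis list in THP-1, beside 0.09 for the 37 genes, and 0.02 and 0.12 in the libraries labelled MOLM-13, beside 0.20. The part of cell cycle phase in the changes of the 37 genes was not tested.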

How the data were processed

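The measurements were gene counts and FPKM values of 24 polyadenylated RNA libraries, 3 per treatment and line. Per the submitters' processing notes, HISAT2, SAMtools and DESeq2 were used with the genome build hg38, with no versions. How reads were assigned to genes, on which strand and with which annotation is not given in the sources used here, and per the labels' protocols the library kit was one that does not mark the strand. The deposited count table holds whole numbers without normalization, and the deposited FPKM table divides the counts by gene length and library size. Gene coordinates are those of the deposited tables, and start and end equal those of GENCODE 29 for all 37 genes.

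edgeR 4.0.16 (R 4.3.3) was fitted to the 12 libraries of each line (filterByExpr, TMM scaling, quasi-likelihood F test), and differences between the lines, as THP-1 minus MOLM-13, over all 24. Benjamini-Hochberg adjustment ran over all genes tested, with a threshold of 0.05, in 16 comparisons. "Called" means past that threshold, and fold changes are treated over its comparator or THP-1 over MOLM-13. Levels are TMM-scaled CPM, CPM by total counts for the marker genes, or FPKM where genes are compared with each other. The SE of a log2 fold change was derived from its F statistic. The 95% intervals reach 1.96 SE to each side, and they can be narrower than the test implies. The fitting code was tested on simulated data. The alternatives were an adjusted p under 0.01, RLE size factors, total counts, no filter, a replicate block, DESeq2 1.42.0, the 6 compared libraries alone, limma 3.58.1 on log2(FPKM + 1) and log2(FPKM + 0.1), and leaving out each library in turn. The comparisons between the lines were tried only with RLE size factors, total counts, no filter, the replicate block and DESeq2. The adjusted p under 0.01 was tried only for treatments against vehicle.

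The 37 members, the other lists and the marker genes were chosen with earlier results of these data known. Named are the members called against vehicle, with per-library values for most of them and for a few members not called. The plan was to give such values for up to 8 called members per comparison. It was also to name up to 4 called genes per other list and comparison. For both compounds in THP-1 more were given of the called members and of the mitosis list. Members discussed in comparisons with single compounds were named after their values were seen. One gene on the list of other recombination genes and 1 end joining gene were not tested. Counting error is covered by the tests and no interval for single counts is given.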

Additional observations from a re-analysis of the deposited data

Results flagged for a closer look

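XRCC2, a strand-exchange accessory gene, was the 1 gene of the 37 called for an interaction of the 2 compounds in the libraries labelled MOLM-13. The interaction was 0.64 ± 0.15 on the log2 scale (SE, 3 libraries per group, edgeR adjusted p = 0.023). XRCC2 was lower with LAA than with vehicle, and higher with both compounds than with olaparib. Neither of these 2 differences was called on its own. XRCC2 was at 23.8, 24.6 and 22.6 CPM with both compounds, 15.6, 17.2 and 15.4 CPM with LAA, 19.7, 18.9 and 17.6 CPM with olaparib, and 21.7, 19.2 and 18.4 CPM with vehicle. The call was lost on leaving out any 1 of 7 of the 12 libraries (edgeR adjusted p from 0.0515 to 0.0834). In the same libraries the 15 genes nearly silent in THP-1 summed to 4.08 CPM with both compounds, 5.33 with LAA, 19.2 with olaparib and 31.6 with vehicle. The rule that picked these genes required counts with olaparib, and their part in the result was not tested. In THP-1 the interaction of XRCC2 was 0.38 ± 0.14 and did not pass (edgeR adjusted p = 0.116).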

How the results depend on the processing

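Of the 56 calls of single genes of the set, tried under 780 alternatives in all, 660 were kept, 120 were lost and 0 changed direction. Of the 56, 33 were kept under each alternative tried for them, all at an adjusted p under 0.05. UBE2T between the lines, 1 of the 33, was tried under only 5 alternatives, with no library left out. Counts of called genes of the set moved by more than 1.5 times as follows, and the cause was not tested. For LAA in THP-1 the count of 1 became 0 at an adjusted p under 0.01, with the replicate block and with limma on FPKM (both pseudocounts), and was 0 to 1 on leaving out a library. For the interaction in THP-1 the count of 0 became 1 with no filter and 1 with DESeq2, and 0 to 3 on leaving out a library. Over all genes it went from 1237 to 1284, to 1483 and to between 797 and 1478. In the libraries labelled MOLM-13, LAA went to 1 with DESeq2. There the combination against vehicle went from 7 to 4 at an adjusted p under 0.01, 13 with the 6 libraries alone, and 4 to 5 on leaving out a library. Over all genes that count went from 1972 to 963, to 2947 and to between 1043 and 1578 under the same settings. Against LAA the count of the set went from 11 to 7 with limma on FPKM (both pseudocounts) and 6 to 14 on leaving out a library. Over all genes it went from 2413 to 1881 and 1873 with limma, and to between 1029 and 3168 on leaving out a library. Against olaparib the count of the set went from 3 to 5 with total counts, 5 with the replicate block, 5 with DESeq2, 6 with the 6 libraries alone, and 1 to 2 on leaving out a library. Over all genes it went from 1208 to 1300, 1227, 1549 and 1485, and to between 624 and 918 on leaving out a library. For the interaction the count of the set went from 1 to 2 with no filter, 2 with DESeq2, and 0 to 2 on leaving out a library. Over all genes it went from 329 to 555, to 544 and to between 206 and 496. In THP-1 the combination count of 14 was 12 to 14 on leaving out a library, 6 to 9 for the 8 called against LAA and 7 to 13 for the 10 called against olaparib. Over all genes these counts were 3476 to 4114 (4423 with all libraries), 2419 to 3116 (3320) and 3079 to 3747 (3952). With total counts the split of higher and lower calls in the libraries labelled MOLM-13 was 7 and 0 for the combination against vehicle and 5 and 0 against olaparib. To look for pairing, each gene's group mean was subtracted from its log2 CPM, and these deviations were correlated between libraries of different groups. The correlations of deviations for same-numbered libraries were -0.0769 to 0.0376 in THP-1 and -0.0856 to 0.116 in those labelled MOLM-13. Those of differently numbered libraries were -0.0469 to 0.0651 and -0.127 to 0.176. These values do not show that replicate numbers pair the libraries, and with 3 libraries per group they cannot exclude it. With the replicate block the calls of NBN for LAA in THP-1 and of RBBP8 against LAA in the libraries labelled MOLM-13 were lost (edgeR adjusted p = 0.0583 and 0.0533). Counts over all genes moved more where few were called: for olaparib in THP-1 they were 44 by edgeR, 95 by DESeq2 and 124 with no filter, and in the libraries labelled MOLM-13 they were 1, 33 and 194. For LAA they were 243, 388 and 383 in THP-1, and 303, 575 and 502 in the libraries labelled MOLM-13. RAD50, RAD52, RAD54B and RAD51B had the fewest counts per length and the widest errors.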
